A study of Mus musculus with 24 samples.

Results

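The ventral root (efferent nerve, EN, fibres) of the mouse was compared between 1 week after birth (1 W) and the day of birth (P0). The comparison took the 6 of the 24 arrays of the series that are labelled EN and P0 or 1 W, with 3 arrays per stage. Both groups came from C57BL/6 mice with no treatment, transgene or allele named, and from the roots at the L4-L6 level of the cord. They differed by age alone in the labels. Per the design text, each group rested on 9 animals and 3 independent experiments. Each array therefore stands for tissue of several animals, how animals were shared out to arrays is not given in the sources used here, and p-values measure the spread between these arrays. The fibres were dissected and homogenised whole, so that axons, Schwann cells, fibroblasts, vessels and any attached tissue were read together. The dorsal root (afferent nerve, AN, fibres) at the same 2 ages served to show where the ventral root differed.

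The ventral root carries the axons of motor neurons, whose cell bodies lie in the spinal cord, out to muscle. In the first days after birth its Schwann cells sort the large axons one by one, leave the cell cycle and wrap each axon in a myelin sheath, which needs large amounts of a few structural proteins and of newly made cholesterol and galactolipid. RNA from such a tissue comes mainly from the glial and connective tissue cells, since the nuclei of the neurons lie elsewhere, and only a limited set of transcripts is carried into axons.

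On each array 56605 gene probes were read, and a probe was kept where its signal was well above background on all 3 arrays of P0 or all 3 of 1 W. This left 33299 probes, of which 27736 carried a gene name and stood for 16663 genes. Values are the deposited log2 values, normalised between arrays, so 1 unit is a doubling, and a gene is given by the brightest of its tested probes. Between 57.4% and 65.1% of gene probes were well above background, the median signal was 121.9 to 169.2 units at P0 and 88.3 to 113.1 units at 1 W over a background of 23 to 43 units, and no spot was saturated. Arrays of one stage correlated at 0.9767 to 0.9875 across probes, and arrays of different stages at 0.9277 to 0.9660. Replicate 3 of 1 W stood closest to P0 and received the lowest array weight, 0.47 against 0.82 to 1.91 for the others. It also lay highest of the 1 W arrays in every neuronal marker list, in skeletal muscle, adipocyte and erythroid markers and in interferon-stimulated genes, so list counts are also given without it where that moved them by more than 1.5 times. Slide 1 held replicate 1 of both stages, slide 3 held replicates 2 and 3 of P0 and replicate 3 of 1 W, and slide 2 held replicate 2 of 1 W alone, so a change could also be read within slide 1 and within slide 3.

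The tissue was checked against markers of the cells that a root can hold. Of 8 Schwann cell markers all were tested. S100b, a calcium-binding protein of Schwann cells, was the one with a change over 2-fold at an adjusted p below 0.05. Its values were 14.67, 14.45 and 14.78 at P0 and 16.41, 16.52 and 16.29 at 1 W. The 3 arrays of 1 W lay above all 3 of P0, with a log2 change of 1.77 ± 0.14 (SE; limma adjusted p = 0.00152). The summed linear level of the 8 markers was 282 to 316 kilounits (1 kilounit being 1000 signal units) at P0 and 434 to 460 kilounits at 1 W, with a median change of 0.43. Sox10, the transcription factor that defines the lineage, changed by 0.63 ± 0.23 (adjusted p = 0.0869).

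Neuronal markers in the P0 samples went against the label of a motor root. The 12 markers of sensory neurons, whose cell bodies lie in the dorsal root ganglion, averaged 10.53, 10.77 and 10.92 on the P0 EN arrays, and the mean over these arrays, 10.74, was close to the 10.99 of the P0 AN arrays. At 1 W the same mean was 7.19, 7.79 and 8.57 on the EN arrays, while the AN arrays averaged 11.64. The sum over the list was 48.0 to 55.7 kilounits at P0 and 14.1 to 38.1 kilounits at 1 W in EN, and each of the 12 markers was still above background on at least 1 of the EN arrays of 1 W. Of the motor neuron markers, 8 of 10 were tested (not Slc5a7 or Mnx1), and their sum was 4.28 to 6.23 kilounits at P0 and 0.797 to 1.5 kilounits at 1 W. Their mean was 8.42 in EN and 8.53 in AN at P0, and 6.55 and 7.96 at 1 W, so it was not higher in the motor root. Chat, which makes acetylcholine in motor neurons, was above background on all 6 arrays and changed by 0.41 ± 0.41 (adjusted p = 0.484). Markers of spinal cord interneurons summed to 8.93 to 9.14 kilounits at P0 and 2.55 to 4.17 kilounits at 1 W in EN. The mean of these interneuron markers was 8.95 in EN and 9.04 in AN at P0, and 6.95 and 8.02 at 1 W. Whether ganglion tissue was collected with the ventral root at P0, or whether samples differ from their labels, was not tested, and all 3 P0 arrays were alike in this, so that no value without them can be given. Every neuronal fall in EN and every difference between the roots in neuronal genes stands under this doubt. Neuronal transcripts fell alongside every axonal and synaptic gene group described further on, and their part in those results was not tested. In whole tissue, fewer cells of a type and less RNA per cell cannot be told apart.

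A gene was called where limma's test gave a Benjamini-Hochberg adjusted p below 0.05 and the change was over 2-fold. By limma 2435 genes (14.6%) passed an unadjusted p below 0.05 with the same fold. By the adjusted rule 2295 of 16663 genes (13.8%) differed, 1081 higher at 1 W (6.49%) and 1214 lower (7.29%), and the median change over all genes was 0.06 on the log2 scale. Counts in the lists below are to be read beside the 6.49% that rose and the 7.29% that fell. At the level of probes 4107 of 33299 (12.3%) were called, 1958 up (5.88%) and 2149 down (6.45%). All 3 arrays of one stage lay beyond all 3 of the other for 8608 genes (51.7%), among them 2292 of the 2295 called genes. Every called gene had the same direction within slide 1 and within slide 3, which the lack of overlap alone fixes for those 2292. Of the called genes 1711 were over 2-fold within both slides. Of the 791 called genes with several tested probes, 702 had all probes of one sign, and the exceptions among named genes are stated below.

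**Figure D1:**
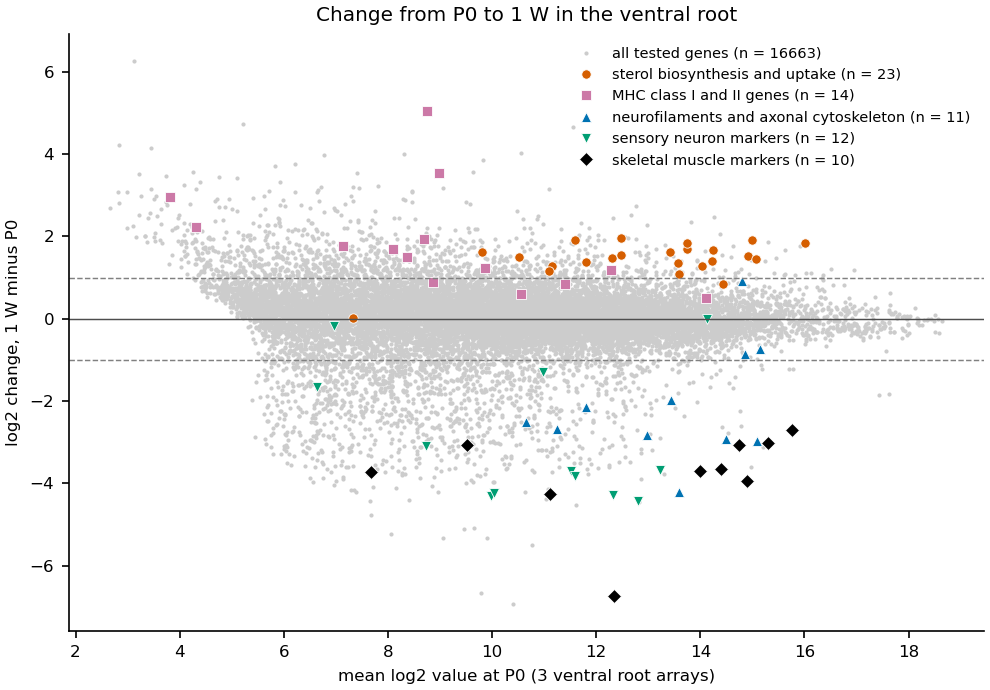
Log2 change from P0 to 1 W in the ventral root (vertical axis) against the mean log2 value at P0 (horizontal axis) for 16663 genes in grey, with the members of 5 gene lists in colour and dashed lines at a 2-fold change. Sterol synthesis and MHC genes sit above 0. The genes of neurofilaments and of sensory neuron markers lie mostly below the lower line, and skeletal muscle markers all lie below it.

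Among the genes with the largest rises measured on both sides was H2-DMb1, a chaperone subunit that loads peptides onto MHC class II. Its values were 9.47, 8.26 and 8.50 at P0 and 13.98, 14.05 and 13.30 at 1 W. The stages were far apart, with a rise of 5.04 ± 0.36 on the log2 scale or 32.8-fold (adjusted p = 0.00137). Fam178b rose by 4.67 ± 0.30 (adjusted p = 0.0012), from 11.13 to 12.18 at P0 to 15.91 to 16.41 at 1 W. Cntf, the ciliary neurotrophic factor that mature Schwann cells store and that sustains motor neurons, was 11.08, 9.99 and 10.60 at P0 and 14.71, 14.73 and 14.31 at 1 W. That is a rise of 4.02 ± 0.29, or 16.3-fold (adjusted p = 0.0014), with no overlap. Ccdc37 rose by 4.01, St8sia5, a sialyltransferase that builds gangliosides, by 3.86 ± 0.32, Dusp14, a phosphatase, by 3.57, although another of its probes changed by 0.11, and Slamf9 by 3.55. Some risen genes were above background on no P0 array, and for these only a bound can be given. Fgf4, a fibroblast growth factor, was at least 19.8-fold higher at 1 W (adjusted p = 0.0021), Sptbn5, a giant beta spectrin, at least 8.47-fold (adjusted p = 0.0014), Fcgbp at least 4.33-fold (adjusted p = 0.0033) and Them5 at least 3.93-fold (adjusted p = 0.0012).

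Neuronal and muscle genes made up most of the named falls. Isl2, a LIM homeodomain factor of motor and sensory neurons, was 11.27, 11.63 and 11.94 at P0 and 6.38, 6.54 and 8.35 at 1 W. It fell by 4.52 ± 0.52 (adjusted p = 0.00264), and the highest 1 W value, that of replicate 3, still lay well under the P0 arrays. Avil, encoding advillin, an actin-binding protein of sensory neurons, fell by 4.44 ± 0.44 (adjusted p = 0.00208). Scn10a, a sodium channel of nociceptors, and Prph, encoding the intermediate filament peripherin, changed by -4.29 and -4.22. The muscle genes Sln, Myoz2 and Ckm changed by -4.46, -4.37 and -4.25. Below background at 1 W were Alb and Afp, the secreted albumins of fetal liver and yolk sac, at least 45.9-fold and 30.1-fold lower (adjusted p = 0.0124 and 0.0136), and both calls were lost with slide as a block. Alb was uneven at P0, from 7.82 in replicate 3 to 13.36 in replicate 2. Myo5b, a myosin motor of membrane traffic, was at least 13.1-fold lower (adjusted p = 0.0014) and Cntnap4, a neurexin-like protein of neurons, at least 11.6-fold lower (adjusted p = 0.0025).

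The genes of myelin proteins were high at birth and rose further. Of 16 myelin protein genes 10 rose and none fell, where 6.49% of all genes rose, and the median change was 1.16 against 0.06 for all genes. The median was 1.02 within slide 1 and 1.08 within slide 3, and leaving out any 1 array left 9 or 10 calls. Summed over the list, the level was 998 to 1147 kilounits at P0 and 1847 to 2022 kilounits at 1 W. Drp2, a dystrophin-related protein of the outermost myelin membrane that organises the Schwann cell's cytoplasmic channels, was 11.71, 10.63 and 10.92 at P0 and 14.49, 14.31 and 13.88 at 1 W. This was the largest change of the group, 3.14 ± 0.31 or 8.83-fold (adjusted p = 0.00205), and the stages were well separated. Mbp, which binds the cytoplasmic faces of the myelin membrane together, was 14.39, 14.04 and 14.34 at P0 and 17.02, 17.11 and 16.07 at 1 W. It rose by 2.48 ± 0.29 (adjusted p = 0.00268), with replicate 3 lowest of the 1 W arrays, but its probes ranged from -0.02 to 2.48, so the size holds for the brightest probe.

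Other members that rose were Pmp2, a fatty acid carrier of myelin, by 1.91, Gjb1, the connexin of the Schmidt-Lanterman incisures, by 1.78, Ndrg1 by 1.76, Ncmap by 1.68, Dusp15 by 1.44, Mal, a lipid-raft protein, by 1.19, Cnp by 1.12 and Cldn19, a claudin of the myelin tight junctions, by 1.00. Pmp22, a tetraspan myelin protein, was not called, with 0.26 for its brightest probe, while another probe changed by 1.78. Mag, Prx and Cadm4 had changes of 0.77, 0.53 and 0.39 that did not reach 2-fold.

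Genes of cholesterol synthesis rose almost throughout. Of 23 genes of sterol synthesis and uptake 21 rose and none fell, with a median of 1.5, which was 1.39 within slide 1 and 1.52 within slide 3. The summed level was 307 to 393 kilounits at P0 and 952 to 1055 kilounits at 1 W, and the list mean was 13.11, 12.73 and 12.83 on the P0 arrays and 14.42, 14.37 and 14.24 on the 1 W arrays. Hmgcs1, which makes the HMG-CoA that enters the pathway, was 16.34, 15.82 and 15.88 at P0 and 17.88, 17.94 and 17.76 at 1 W. It rose by 1.85 ± 0.17, or 3.60-fold (adjusted p = 0.00183), and the 1 W arrays lay close together well above P0. Lss, lanosterol synthase, which closes the sterol rings, was 12.44, 12.46 and 12.55 at P0 and 14.26, 14.14 and 14.89 at 1 W, a rise of 1.95 ± 0.21 (adjusted p = 0.00229). The methylsterol oxidase Msmo1 and the mevalonate decarboxylase Mvd each rose by 1.92, and Fdps, which builds farnesyl diphosphate, by 1.45 ± 0.11 (adjusted p = 0.00146). Mvk, mevalonate kinase, was not called, at 0.83 (adjusted p = 0.00672, under 2-fold).

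The 120 bases before the start of the 4 sterol genes with the largest called rises and a promoter in the table are shown, since these genes rose together. They are RefSeq sequences of GRCm38.p6, read 5′ to 3′ on the strand of the gene. Capitals mark CCAAT or its reverse complement ATTGG, the box that the trimeric factor NF-Y binds. The windows are chr10:76531485-76531604 on the + strand for Lss, chr8:64733579-64733698 on the - strand for Msmo1, chr8:122443423-122443542 on the - strand for Mvd and chr13:119690231-119690350 on the + strand for Hmgcs1.
Lss: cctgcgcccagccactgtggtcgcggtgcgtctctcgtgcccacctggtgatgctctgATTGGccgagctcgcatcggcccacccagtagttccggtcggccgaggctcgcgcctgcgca
Msmo1: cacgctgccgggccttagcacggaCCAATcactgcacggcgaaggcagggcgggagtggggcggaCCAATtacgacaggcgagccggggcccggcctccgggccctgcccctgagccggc
Mvd: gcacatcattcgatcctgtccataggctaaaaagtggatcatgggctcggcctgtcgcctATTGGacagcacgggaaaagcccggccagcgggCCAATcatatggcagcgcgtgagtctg
Hmgcs1: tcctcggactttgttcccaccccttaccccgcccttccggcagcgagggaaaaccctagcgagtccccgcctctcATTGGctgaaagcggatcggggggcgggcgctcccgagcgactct
Each of the 4 windows held the box. The promoter table, which reaches from 250 bases before to 50 bases after a start, had 18 promoters of 15 sterol genes. Of these 15 (83.3%) held CCAAT on either strand, where 37.4% of all 32851 promoters did. CACCCCA, an arrangement of letters found in sterol response elements, was in 1 of the 18 (5.56%) and in 7.62% of all promoters. A match of letters is a description and not a bound site.

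The lipids of the sheath followed. Of 22 genes for fatty acids and galactolipids 10 rose and none fell, with a median of 0.97 (0.93 within slide 1, 0.85 within slide 3). Ugt8a, the enzyme that makes galactosylceramide, was 13.29, 12.47 and 13.18 at P0 and 15.38, 15.28 and 15.10 at 1 W. It rose by 2.28 ± 0.23, or 4.84-fold (adjusted p = 0.00213), and the stages did not overlap. Acss2, which makes acetyl-CoA from acetate, rose by 1.98, the desaturases Scd1 and Scd2 by 1.54 and 1.21, Cers2, the ceramide synthase for very long chains, by 1.27, and the elongase Elovl6 by 1.26.

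The regulators of this programme moved little at the RNA level. Of 13 transcription factors of Schwann cell myelination 1 rose and none fell, with a median of 0.09. The one was Nab2, a partner that binds Egr2, with 11.90, 11.78 and 11.25 at P0 and 13.36, 13.30 and 12.72 at 1 W. It rose by 1.48 ± 0.24 (adjusted p = 0.00701), and the lowest 1 W array, replicate 3, lay above the highest P0 array. Egr2, the zinc finger factor that switches myelin genes on, changed by 0.28 (adjusted p = 0.14), and Pou3f1, which precedes it, by 0.04. Srebf1 and Srebf2, whose proteins are activated by cleavage and drive lipid and sterol genes, changed by 0.18 and 0.09. None of 8 genes of neuregulin, Lgi4 and Adgrg6 signalling was called, and their median was 0.15. Of these signals, neuregulin tells Schwann cells how thick an axon is.

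Genes of immature Schwann cells went down in part. Of 17 such genes 5 fell and none rose, with a median of -0.90 (-1.04 within slide 1, -0.72 within slide 3), and 9 fell without replicate 3 of 1 W. Ncam1, an adhesion molecule of immature and non-myelinating Schwann cells, was 13.65, 13.93 and 13.79 at P0 and 12.04, 12.23 and 12.42 at 1 W. It fell by 1.56 ± 0.15 (adjusted p = 0.00195), and its 5 probes ranged from -2.08 to -0.92. Gap43, a growth protein shared with growing axons, was 12.83, 13.37 and 13.46 at P0 and 9.95, 9.93 and 11.10 at 1 W, a fall of 2.90 ± 0.35 (adjusted p = 0.00296). Fabp7, a fatty acid carrier of Schwann cell precursors, fell by 2.04, Pax3 by 1.20 and L1cam by 1.12. Gap43, Ncam1 and L1cam are made by neurons as well, so that the neuronal markers stated above moved with them. Jun and Sox2, which hold Schwann cells back from myelination, changed by -0.50 and -0.38, and Ngfr, the low-affinity neurotrophin receptor, by 0.29. None of these 3 was called.

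**Figure D2:**
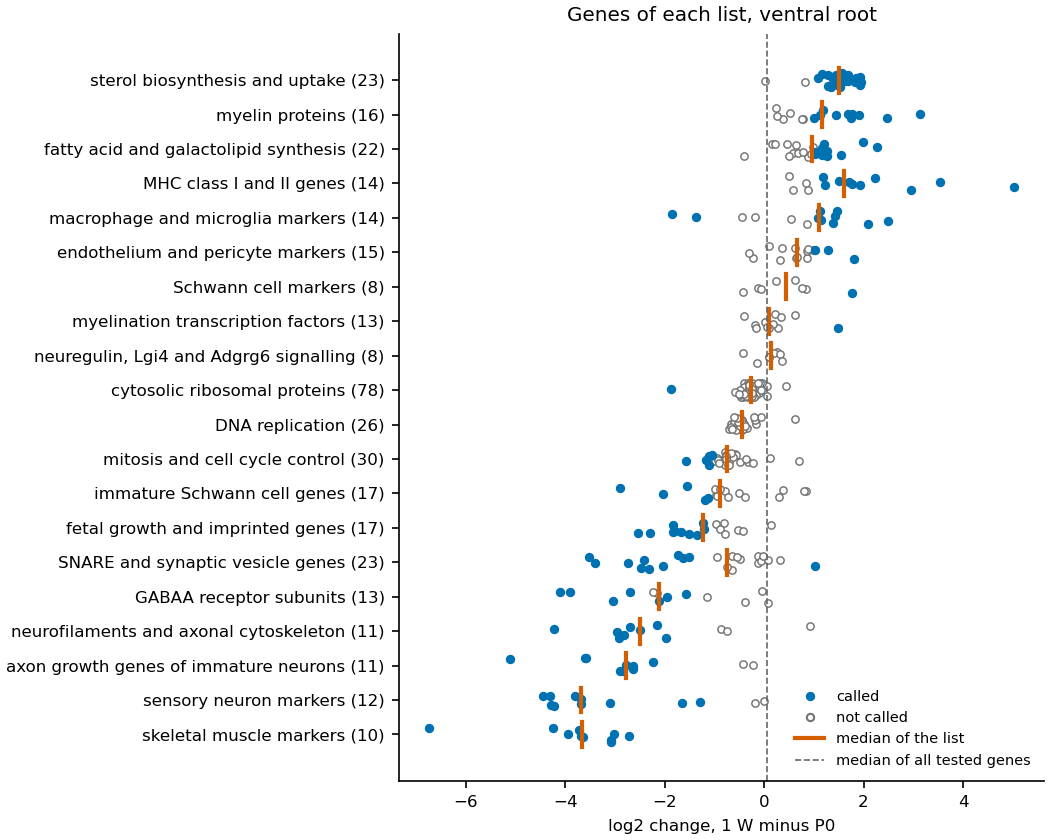
Log2 change from P0 to 1 W (horizontal axis) of each tested gene of 20 gene lists, filled blue where called and open where not, with the list median in orange and the median of all genes, 0.06, as a dashed line. Sterol, myelin protein and MHC genes lie to the right, and sensory neuron markers, skeletal muscle markers and axon growth genes to the left.

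Genes of cell division were lower at 1 W, mostly by less than 2-fold. Of 30 genes of mitosis and cell cycle control 5 fell (16.7%, where 7.29% of all genes fell) and none rose, but 28 had a negative change. The median was -0.75 (-0.91 within slide 1, -0.50 within slide 3), against 0.06 for all genes. The count that fell was 10 without replicate 3 of 1 W. Cdc20, an activator of the anaphase-promoting complex, was 13.61, 13.66 and 13.45 at P0 and 12.42, 12.41 and 12.59 at 1 W. It fell by 1.1 ± 0.12 (adjusted p = 0.00251), with little spread at either stage. The cyclin genes Ccnd2, Ccna2 and Ccnd1 fell by 1.57, 1.18 and 1.11, and the kinesin gene Kif20a by 1.04. Mki67, the standard marker of cycling cells, was 13.54, 14.05 and 13.84 at P0 and 12.73, 12.89 and 13.49 at 1 W, and its change of -0.77 did not pass the test (adjusted p = 0.0525). Of 26 DNA replication genes none was called, 25 had a negative change, and the median was -0.45 against 0.06 for all genes.

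The Cdc20 window is chr4:118437344-118437463 on the - strand of GRCm38.p6. It is shown because Cdc20 was the called mitosis gene with a promoter in the part of the table used for windows, which left out a chromosome. Capitals mark CCAAT and TTTGAA, the core of the element through which mitotic genes are silenced outside division.
Cdc20: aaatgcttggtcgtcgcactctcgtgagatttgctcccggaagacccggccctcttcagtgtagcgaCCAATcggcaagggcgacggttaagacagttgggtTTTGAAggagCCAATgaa
In the table, 24 promoters of 22 mitosis genes were found, of which 19 (79.2%) held CCAAT and 15 (62.5%) held TTTGAA on either strand. Over all promoters the shares were 37.4% and 17.9%. Of 26 promoters of 22 replication genes, 13 (50%) held TTGGCGC or TTCCCGC, letters of E2F elements on either strand, where 6.81% of all promoters did. The first of these shares the letters TTGG with ATTGG, so 1 stretch can count for both. The replication list with these letters had no called gene, and the mitosis list had 5.

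Genes of fetal growth fell in larger number. Of 17 fetal and imprinted growth genes 10 fell and none rose, with a median of -1.22 (-1.18 within slide 1, -0.81 within slide 3). Igf2bp1, an RNA-binding protein of the embryo, was 9.30, 9.43 and 9.38 at P0 and 6.52, 6.85 and 7.13 at 1 W. It fell by 2.54 ± 0.17, or 5.80-fold (adjusted p = 0.00137), with narrow spread at P0. Cdkn1c, an imprinted inhibitor of the cell cycle, was 17.31, 17.37 and 17.62 at P0 and 15.46, 15.65 and 15.66 at 1 W, a fall of 1.84 ± 0.14, with no overlap (adjusted p = 0.00149). Lin28b, which blocks let-7 microRNAs, fell by 2.30, the imprinted RNA H19 by 1.82 and its neighbour Igf2, the fetal growth factor, by 1.22. Of 11 enzymes of DNA methylation and Polycomb repression, Dnmt3a alone was called, at 1.07, and another of its probes changed by -0.29. Dnmt3a was not called without P0 replicate 3 or with slide as a block.

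Axonal genes, in contrast to those of the sheath, were lower at 1 W. Of 11 genes of neurofilaments and the axonal cytoskeleton 8 fell and none rose (7.29% of all genes fell), with a median of -2.50, which was -2.69 within slide 1 and -1.88 within slide 3. Without replicate 3 of 1 W, 9 fell and 1 rose. Prph was 13.14, 13.71 and 13.94 at P0 and 8.57, 9.34 and 10.21 at 1 W. It fell by 4.22 ± 0.42, or 18.6-fold (adjusted p = 0.00208). Nefl, the light neurofilament subunit, was 14.58, 15.11 and 15.59 at P0 and 11.35, 11.86 and 13.16 at 1 W, a fall of 2.97 ± 0.49 (adjusted p = 0.00696). In both genes replicate 3 was highest of the 1 W arrays and still under every P0 array. Nefm and the neuronal tubulin Tubb3 fell by 2.91 and 2.82, whereas Nefh, the heavy subunit of mature axons, and Sncg, a synuclein, had changes of -0.75 and 0.91 that were not called.

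Of 11 axon growth genes 9 fell, with a median of -2.77 (-3.06 within slide 1, -2.26 within slide 3). Dcx, a microtubule protein of young neurons, was 9.25, 9.62 and 9.53 at P0 and 2.50, 5.24 and 5.34 at 1 W. It fell by 5.11 ± 0.73 (adjusted p = 0.00468), with no overlap. On replicate 1 of 1 W it was not well above background, so the size is not exact. Crmp1 and Stmn2, a collapsin response mediator and a tubulin-binding protein of growth cones, fell by 3.60 and 3.59. Tubb2b, a tubulin of young neurons, changed by -0.43 and was not called.

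**Figure D3:**
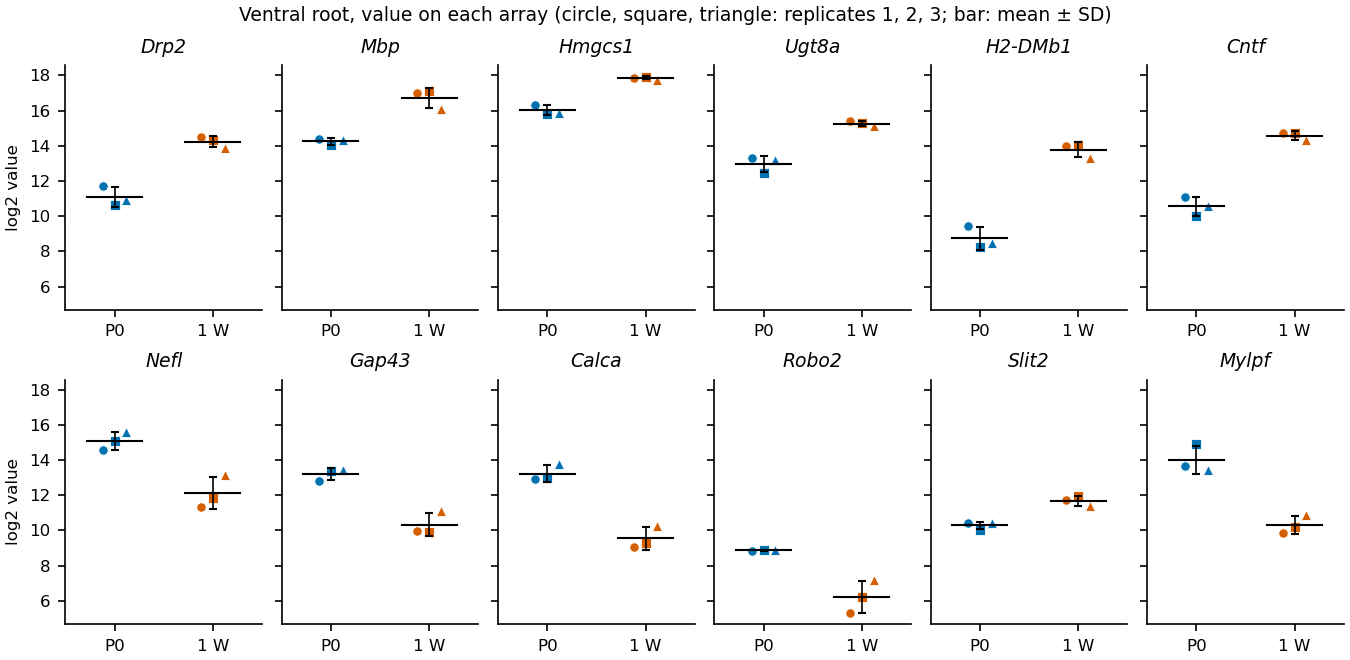
Log2 value (vertical axis) of 12 genes on each of the 6 ventral root arrays at P0 and 1 W, where circles, squares and triangles are replicates 1 to 3 and bars give the mean ± SD. Drp2, Mbp, Hmgcs1, Ugt8a, H2-DMb1, Cntf and Slit2 have all 1 W arrays above P0, Nefl, Gap43, Calca, Robo2 and Mylpf all below, and replicate 3 is the highest 1 W array in these falling genes.

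Sensory neuron markers fell together with these genes. Of the 12 markers 10 fell and none rose, with a median of -3.69 (-4.01 within slide 1, -2.90 within slide 3). Calca, encoding the peptide CGRP of nociceptors, was 12.95, 12.97 and 13.77 at P0 and 9.06, 9.30 and 10.28 at 1 W. It fell by 3.68 ± 0.37, or 12.9-fold (adjusted p = 0.00208), and every 1 W array was under every P0 array. Prdm12, a transcription factor of nociceptors, fell, at -4.23, as did the peptide gene Tac1 at -3.81, Scn11a at -3.69, Mrgprd at -3.10, the heat channel gene Trpv1 at -1.66 and Pvalb at -1.29. P2rx3 changed by -0.19, and the probes of Pou4f1, a factor of sensory neurons, ran from -4.11 to 0.00 with the brightest at 0.00, so Pou4f1 has no settled change.

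Of the 8 tested motor neuron markers 5 fell, with a median of -1.45. Isl1, the LIM homeodomain factor that motor and sensory neurons share, was 8.52, 9.13 and 9.51 at P0 and 2.73, 3.09 and 5.37 at 1 W, a fall of 5.32 ± 0.69 (adjusted p = 0.00347). On replicates 1 and 2 of 1 W it was not well above background, so the size is not exact. Slc18a3, the vesicular acetylcholine transporter, was 7.79, 8.78 and 7.48 at P0 and 6.48, 6.41 and 6.50 at 1 W, a fall of 1.55 (adjusted p = 0.0153). Chodl, a marker of fast motor neurons, and Esrrg, one of gamma motor neurons, fell by 2.87 and 1.34. Of 10 interneuron markers 7 fell, with a median of -2.44, but -3.71 within slide 1 and -1.01 within slide 3. They included Slc17a6, a vesicular glutamate transporter, at -3.81, Rbfox3, the nuclear antigen NeuN, at -3.50, and Slc6a5, a glycine transporter, at -2.84. This count was 4 with slide as a block, without any one of the P0 replicates, or without replicate 2 of 1 W.

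Receptor genes fell with the neuronal markers. Of 19 GABAA receptor subunit genes 13 were tested (not Gabra6, Gabrd, Gabre, Gabrp, Gabrq or Gabrr3), 7 fell and none rose, with a median of -2.12, or -2.26 within slide 1 and -1.26 within slide 3. These genes encode the chloride channel subunits opened by GABA, and their values were low, so the median was -1.08 after another background correction. Gabrb2, a beta subunit still measured at 1 W, was 8.33, 8.43 and 8.23 at P0 and 6.54, 6.70 and 7.0 at 1 W. It fell by 1.58 ± 0.16 (adjusted p = 0.00208), with another probe at -0.46. Gabrg1, Gabrg3 and Gabra3 fell by 3.04, 2.12 and 1.96. Among the 8 subunits above background on all 6 arrays, 3 fell.

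Of 16 ionotropic glutamate receptor genes 7 fell and none rose, with a median of -0.66, and 3 fell after the other background correction. Grin2a, an NMDA receptor subunit, was at least 3.07-fold lower (adjusted p = 0.018), Grin3a fell by 2.48, the kainate receptor subunits Grik4 and Grik3 by 2.42 and 2.04, Grin1, the subunit that all NMDA receptors need, by 1.27, and the AMPA receptor subunits Gria2 and Gria4 by 1.12 and 1.02.

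Of 10 genes of neurexins, neuroligins and Lrrtm proteins, which are adhesion proteins of synapses, 3 fell and none rose, with a median of -0.40. Nrxn3 fell by 2.22, with probes from -2.22 to 0.20, and Nrxn2 by 1.31. Nlgn1 and Nlgn2 changed by -0.59 (adjusted p = 0.0342, under 2-fold) and -0.18.

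Of 23 SNARE and synaptic vesicle genes 10 fell and 1 rose, with a median of -0.75. Cplx1, a complexin that clamps fusion, fell by 3.52, Syt1, the calcium sensor of release, by 3.39, and the synapsin genes Syn2 and Syn1 by 2.74 and 2.48. The one that rose, Pclo, had probes from -2.60 to 1.02, so its direction depends on the probe. Pclo was not called without P0 replicate 3 or 1 W replicate 1 or 2, with slide as a block, or after the other background correction. Snap25, a membrane SNARE, changed by -0.49, and Unc13c, a vesicle priming factor, by -0.64 (adjusted p = 0.149). Npy, a neuropeptide, was 8.49, 8.23 and 8.07 at P0 and 3.47, 4.14 and 5.94 at 1 W, and fell by 3.74 ± 0.59 (adjusted p = 0.0061). It was well above background on only 1 array of 1 W, so the size is not exact.

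Genes of the nodes of Ranvier, the gaps between myelin segments, went both ways. Of 13 node and paranode genes 2 rose and 4 fell, with a median of 0.08. Nfasc, the neurofascin gene, whose splice forms serve the glial side of the paranode and the axon's node, was 12.37, 11.52 and 11.70 at P0 and 14.22, 14.33 and 13.65 at 1 W. It rose by 2.21 ± 0.28 (adjusted p = 0.00328). Gldn, gliomedin, which Schwann cells use to gather sodium channels at nodes, rose by 1.60 ± 0.14 (adjusted p = 0.00156). Among those that fell were Cntn2, an adhesion molecule of the juxtaparanode, by 3.63, with a second probe at -0.23, Cntnap2, Caspr2 of the juxtaparanode, by 3.35, and Cntn1, axonal contactin, by 1.75.

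Guidance genes had no common direction. Of 7 Slit ligands and Robo receptors 1 rose and 3 fell, and the median of -1.05 was -1.40 within slide 1 and 0.01 within slide 3. Slit2, a secreted repellent, was 10.41, 10.05 and 10.41 at P0 and 11.74, 11.94 and 11.38 at 1 W. It rose by 1.40 ± 0.19, or 2.64-fold (adjusted p = 0.00392), with all 1 W arrays above P0. Its receptor gene Robo2 was 8.83, 8.91 and 8.89 at P0 and 5.32, 6.19 and 7.16 at 1 W, and fell by 2.65 ± 0.43 (adjusted p = 0.0064). The list median was -0.43 without P0 replicate 1. Slit1 and Slit3 fell by 2.03 and 1.16, while Robo1, Robo3 and Robo4 had changes of -0.42, -1.05 and 0.44 that were not called.

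Of 31 semaphorins, plexins and neuropilins 4 rose (12.9%) and 3 fell (9.68%), where 6.49% of all genes rose and 7.29% fell. Their median was 0.13. Sema4f fell by 3.93 ± 0.34 (adjusted p = 0.00163), Sema3a, a repellent that motor neurons make, by 1.83 and the receptor gene Plxna4 by 1.38. Sema5a, Sema3b, Sema4d and Sema4g rose by 2.03, 1.47, 1.22 and 1.1, although the probes of Sema5a ran from -0.27 to 2.27. Among 28 ephrins, Eph receptors and netrin genes, Efna5 fell by 1.30 and Unc5b, a netrin receptor gene, rose by 1.38, with a median of -0.01. That is 3.57% each way, under the shares of all genes.

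The matrix changed in single genes. Of 27 collagen chain genes 4 rose (14.8%, where 6.49% of all genes rose) and none fell, with a median of -0.16. Col15a1, a collagen of basement membrane zones, rose by 2.80, or 6.96-fold, Col14a1 by 1.46, Col5a3 by 1.44 and Col28a1, a collagen of peripheral nerve, by 1.18. Of 19 basal lamina genes, Lama3 rose by 1.44 and Lama1, a laminin chain of the embryo, fell by 1.74, with a median of 0.34. In this list no gene was called higher without 1 W replicate 1 or 2, with slide as a block, after the other background correction, or with no filter. Of 9 small leucine-rich proteoglycan genes, Ogn, osteoglycin, rose by 2.34 and Aspn, asporin, fell by 1.20, with a median of 0.36. Here no gene was called lower without 1 W replicate 1, with slide as a block, or after the other background correction. None of 9 meningeal markers was called, and their sum was 163 to 209 kilounits at P0 and 119 to 260 kilounits at 1 W.

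Most MHC genes and most macrophage and microglia markers rose. Of 14 MHC genes 10 rose and none fell, with a median of 1.60, which was 0.89 within slide 1 and 1.89 within slide 3, and 7 to 10 were called when any one array was left out. H2-DMa, the partner of H2-DMb1, was 9.65, 8.47 and 8.85 at P0 and 12.58, 12.81 and 12.20 at 1 W. It rose by 3.54 ± 0.32 (adjusted p = 0.00178). H2-Aa, a class II alpha chain, rose by 2.95 (adjusted p = 0.0101), H2-Eb1 by 1.93 ± 0.16, Cd74, the invariant chain, by 1.77, and Ciita, the class II transactivator, was at least 2.76-fold higher (adjusted p = 0.0186). B2m, the light chain of class I, changed by 0.49 and was not called.

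The windows of both H2-DM genes are shown, since H2-DMb1 had the largest rise of the MHC list. H2-DMb1 is at chr17:34153071-34153190 and H2-DMa at chr17:34122712-34122831, both on the + strand of GRCm38.p6, and capitals again mark CCAAT or ATTGG, here as the letters of the Y box of class II promoters.
H2-DMb1: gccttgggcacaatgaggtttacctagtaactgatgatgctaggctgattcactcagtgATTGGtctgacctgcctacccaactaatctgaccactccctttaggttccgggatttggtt
H2-DMa: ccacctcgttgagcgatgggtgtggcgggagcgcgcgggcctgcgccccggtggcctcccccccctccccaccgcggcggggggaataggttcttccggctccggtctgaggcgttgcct
The H2-DMb1 window held ATTGG, and the H2-DMa window, 1 of the 2 starts that the table gives for this gene, held neither form. Of 12 promoters of 10 MHC genes that the table held, 10 (83.3%) held CCAAT on either strand, where 37.4% of all promoters did. The share was 79.2% for the mitosis list and 61.5% for the replication list. It was 47.4% for the myelin protein list and 14.3% for the neurofilament list, so it did not go with the direction of change.

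Of 14 macrophage and microglia markers 8 rose and 2 fell, with a median of 1.11, and their sum was 33.8 to 42.5 kilounits at P0 and 61.8 to 67.5 kilounits at 1 W. Cx3cr1, the fractalkine receptor, was 11.18, 11.09 and 10.39 at P0 and 13.40, 13.43 and 13.31 at 1 W. It rose by 2.49 ± 0.22 (adjusted p = 0.00174), and the 1 W arrays were nearly equal. Adgre1, the F4/80 antigen, rose by 2.09 ± 0.14, Aif1 by 1.46, the complement gene C1qa by 1.42 and the growth factor receptor gene Csf1r by 1.38. Cd163, a scavenger receptor, and Lyve1, a hyaluronan receptor, fell by 1.85 and 1.38. Both falls were no longer called without P0 replicate 2 or without 1 W replicate 2, and 1 of them without P0 replicate 3 or 1 W replicate 1. The macrophage markers rose beside the MHC genes, and their part in that rise was not tested. Mast cell proteases fell, with 3 of 5 markers lower, Cpa3 by 3.59, Cma1 by 2.44 and Mcpt4 by 2.33, and a sum of 2.36 to 2.92 kilounits at P0 against 1.62 to 2.20 kilounits at 1 W.

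None of 13 interferon-stimulated genes was called. Their mean was 9.30, 9.88 and 9.03 at P0 and 8.96, 9.36 and 11.32 at 1 W, so replicate 3 of 1 W alone lay above P0. The median of 0.55 was -0.38 within slide 1, 1.94 within slide 3, and -0.37 without that replicate.

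Notch genes went both ways, and the other signalling and metabolic lists had few calls. Of 13 Notch genes Dll4, a ligand of endothelial cells, Heyl and Hes1 rose by 1.95, 1.47 and 1.11, and Hey2 and Dll3 fell by 2.04 and 1.77. These were 23.1% up and 15.4% down, where 6.49% of all genes rose and 7.29% fell. The number that fell was 4 without replicate 3 of 1 W. Of 11 hedgehog genes Gas1, a co-receptor gene, fell by 1.09. This call was lost without P0 replicate 3 or 1 W replicate 1 or 2, with slide as a block, or after the other background correction. Of 11 Igf genes Igf2 was the one called, with 2 called without 1 W replicate 3. Of 20 glycolysis and lactate transport genes 3 fell (15%, where 7.29% of all genes fell). Slc16a3 fell by 2.09, Pfkp by 1.94 and Eno2, the neuronal enolase, by 1.07. Among 76 nuclear oxidative phosphorylation genes Cox6a2 fell by 2.93 and Cox7a1 rose by 1.25, with a median of -0.12. Among 78 cytosolic ribosomal protein genes the muscle form Rpl3l was at least 2.77-fold lower, with a median of -0.27. The call of Rpl3l was lost without 1 W replicate 1 or 2 and with slide as a block. It was also lost after the other background correction, with no filter, and with the spread of all 24 arrays. The count of respiratory genes that rose was 0 without P0 replicate 3 or with slide as a block, and the count that fell was 3 without 1 W replicate 3. The immediate early genes Atf3 and Arc rose by 1.25 and 1.14, the 2 called of 11 (18.2%, where 6.49% of all genes rose). Of these calls 1 was left without P0 replicate 1 or 3 or 1 W replicate 1 or 2, or with slide as a block.

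Skeletal muscle markers and part of the cartilage and bone markers were higher at P0. All 10 skeletal muscle markers fell, with a median of -3.66 (-3.71 within slide 1, -3.01 within slide 3), and their sum was 146 to 375 kilounits at P0 and 18.0 to 33.4 kilounits at 1 W. Myh3, the embryonic myosin heavy chain gene, was 10.99, 14.05 and 12.01 at P0 and 6.32, 4.52 and 5.96 at 1 W, a fall of 6.75 ± 0.82 (adjusted p = 0.00301). On replicate 2 of 1 W Myh3 was not well above background, so the size is not exact. Mylpf, a fast myosin light chain gene, was 13.64, 14.89 and 13.46 at P0 and 9.86, 10.17 and 10.87 at 1 W, a change of -3.69 ± 0.43 (adjusted p = 0.00267), with a dimmer probe at 0.75. P0 replicate 2, also the highest in Alb, was highest in both. Acta1, skeletal actin, fell by 3.94. Of 8 cartilage and bone markers 4 fell, among them Col10a1 by 3.33 and Ibsp by 2.56, with a sum of 22.6 to 24.4 kilounits at P0 and 8.46 to 16.7 kilounits at 1 W, and 1 to 2 fell without P0 replicate 2 or 3 or without 1 W replicate 1 or 2. Of 8 adipocyte markers Retn, resistin, fell, by 1.52, in a list of 4 calls without replicate 3 of 1 W and of none without P0 replicate 3 or 1 W replicate 1 or 2. None of 7 erythroid markers was called, and 2 were called lower without that replicate, which had the highest mean, 12.73 against 11.07 to 11.99 on the other arrays.

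Of 14 oligodendrocyte markers 9 were tested (not Opalin, Olig2, Nkx2-2, Hapln2 or Klk6) and 2 rose, with a sum of 45.3 to 56.3 kilounits at P0 and 32.5 to 57.3 kilounits at 1 W. Mobp, a protein of central myelin, was 7.48, 3.79 and 4.36 at P0 and 8.89, 11.23 and 9.72 at 1 W. It rose by 4.74 ± 1.04 (adjusted p = 0.0183), with wide spread at both stages, and was 1 of the 2 called. On replicates 2 and 3 of P0 Mobp was not well above background, so the size is not exact. One of the 2 calls was lost without P0 replicate 2 or 3 or 1 W replicate 2. Of 9 astrocyte markers Fgfr3 and the glutamate transporter gene Slc1a2 fell, by 1.53 and 1.5, and their sum was 14.4 to 18.3 kilounits at P0 and 16.4 to 20.3 kilounits at 1 W. No astrocyte call was left without P0 replicate 1 or without P0 replicate 2, and 1 was left without 1 W replicate 2. Of 15 endothelial and pericyte markers Mfsd2a, a lipid transporter of barrier vessels, rose by 1.80, Rgs5, a pericyte marker, by 1.29 and Abcb1a, the efflux pump, by 1.03. These 3 were 20% of the list, where 6.49% of all genes rose. The median was 0.67, the sum was 41.7 to 51.4 kilounits at P0 and 68.8 to 73.0 kilounits at 1 W, and 5 rose without P0 replicate 1.

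The same step was then read in the dorsal root, and the difference between the roots was tested as an interaction over their 12 arrays. The myelin protein genes had a median change of 1.73 in AN beside 1.16 in EN, the sterol genes 1.90 beside 1.5, the MHC genes 1.57 beside 1.60, the mitosis genes -1.0 beside -0.75 and the fetal genes -1.18 beside -1.22. Skeletal muscle markers fell in both, with medians of -2.98 and -3.66. In the neuronal lists the values were far apart. The medians were 0.57 in AN and -3.69 in EN for sensory neuron markers, 0.35 and -2.50 for neurofilament genes, -0.40 and -2.77 for axon growth genes, and -0.35 and -2.12 for GABAA subunits.

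By the interaction test 679 of 34273 probes (1.98%) differed between the roots, which came to 481 of 17017 genes (2.83%). The signed change was higher in AN for 631 of these probes and lower for 48, where a higher value can also be a smaller fall. With replicate number as a block, since dorsal and ventral samples of one number deviated together, 692 genes (4.07%) were called. An unadjusted p below 0.05 with the same fold was met by 1529 probes (4.46%). When the spread was taken from all 24 arrays, 22 probes were called, 7 with the signed change higher in AN and 15 with it lower. Both the count and the side with more calls thus depend on which arrays give the error, and the cause was not tested. Of the 12 sensory markers 10 differed, 9 with the block and 0 with the spread of all 24 arrays, and 3 without replicate 3 of EN P0 or 4 without replicate 2 of AN 1 W. Of the 11 neurofilament genes 5 differed, of the 11 axon growth genes 4, of the 23 vesicle genes 6 and of the 13 node genes 4. In all of these the signed change was higher in AN. With the block these counts were 6, 7, 11 and 5, and with the spread of all 24 arrays each was 0. When 1 array was left out they ran from 1 to 7, 0 to 7, 0 to 11 and 0 to 5, each lowest without replicate 3 of EN P0, and the node count was also 0 without replicate 2 of EN P0, replicate 2 of EN 1 W, replicate 1 of AN P0 or any one replicate of AN 1 W. Axon growth and vesicle counts were at most 2 and 3 without any one of these or of replicate 3 of AN P0, the axon growth count was 2 without replicate 1 of EN P0, and both were highest without replicate 2 of AN P0.

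Genes whose change in AN exceeded that in EN by much were Tlx2, by 5.10 ± 0.84 (adjusted p = 0.0163), and the nociceptor genes Mrgprd, by 4.90 ± 0.87 (adjusted p = 0.0191), Prdm12, by 4.87 ± 0.76 (adjusted p = 0.0155), and Avil, by 4.85 ± 0.67 (adjusted p = 0.0127). Mrgprd changed by -3.10 in EN and 1.80 in AN, and Prdm12 by -4.23 and 0.64. Tlx2, Mrgprd and Prdm12 were each well above background on only 2 EN arrays of 1 W, so these sizes are not exact. In the other direction Slit2 changed by 1.40 in EN and -0.34 in AN, a difference of -1.74 ± 0.24 (adjusted p = 0.0121). The aldehyde dehydrogenase genes Aldh1a1 and Aldh1a7 changed by 1.74 and 1.40 in EN and by -0.13 and -0.31 in AN. Their differences were -1.87 ± 0.33 and -1.71 ± 0.17 (limma adjusted p = 0.0193 and 0.0051). Of the endothelial markers 3 of 15 differed, with medians of 0.67 in EN and -0.33 in AN. Beside these differences, the sensory marker mean was 10.74 at P0 and 7.85 at 1 W in EN, against 10.99 and 11.64 in AN, and its part in them was not tested.

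**Figure D4:**
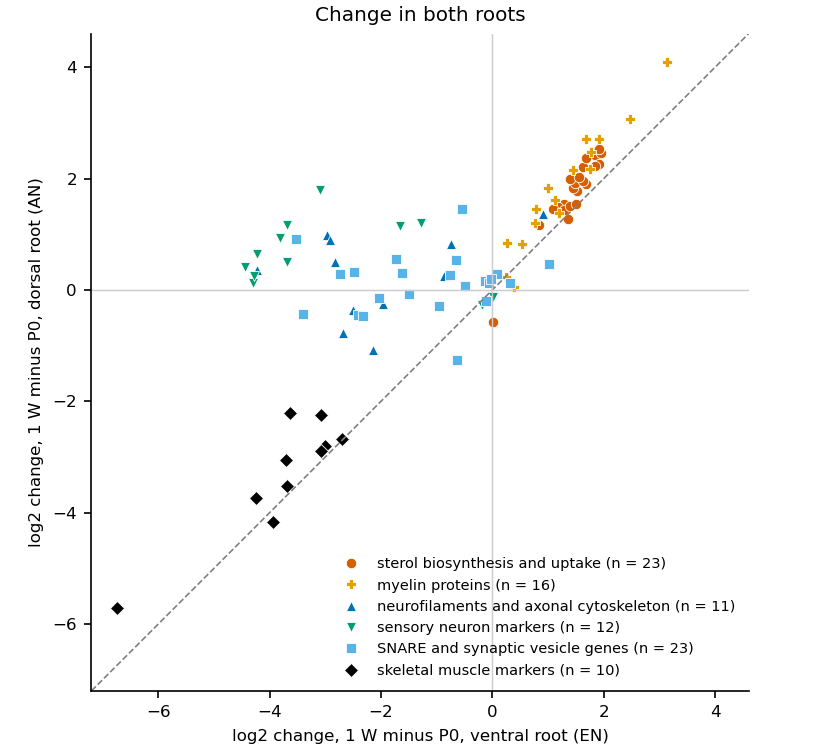
Log2 change from P0 to 1 W in the ventral root (horizontal axis) against that in the dorsal root (vertical axis) for the genes of 6 lists, with a dashed line where both are equal. Sterol, myelin and skeletal muscle genes lie near the line, while sensory neuron markers lie far to the left of it, with medians of -3.69 in the ventral and 0.57 in the dorsal root.

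The later ventral root arrays place the step in the whole course, as values with no test. The sterol list had means of 12.89 and 14.35 at P0 and 1 W, then 14.23 (3 W) and 14.12 (5 W), so most of the difference lay in the first week. The myelin protein list went from 14.90 to 16.18, 16.49 and 16.45. The mitosis list went on down after the first week, from 11.24 and 10.54 to 8.78 and 8.14, and the MHC list went on up, from 8.94 and 10.79 to 11.38 and 12.48. The neurofilament list stayed near its 1 W value, with 13.46, 11.38, 11.56 and 11.52, as did the sensory markers, with 10.74, 7.85, 7.90 and 7.70, the motor markers, with 8.42, 6.55, 6.25 and 6.04, and the muscle markers, with 12.97, 9.19, 9.85 and 9.23. Of the 13 GABAA subunits, 3 were above background on no EN array of 1 W, a number that was 4 for the 3 W arrays and 6 for those of 5 W.

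**Figure D5:**
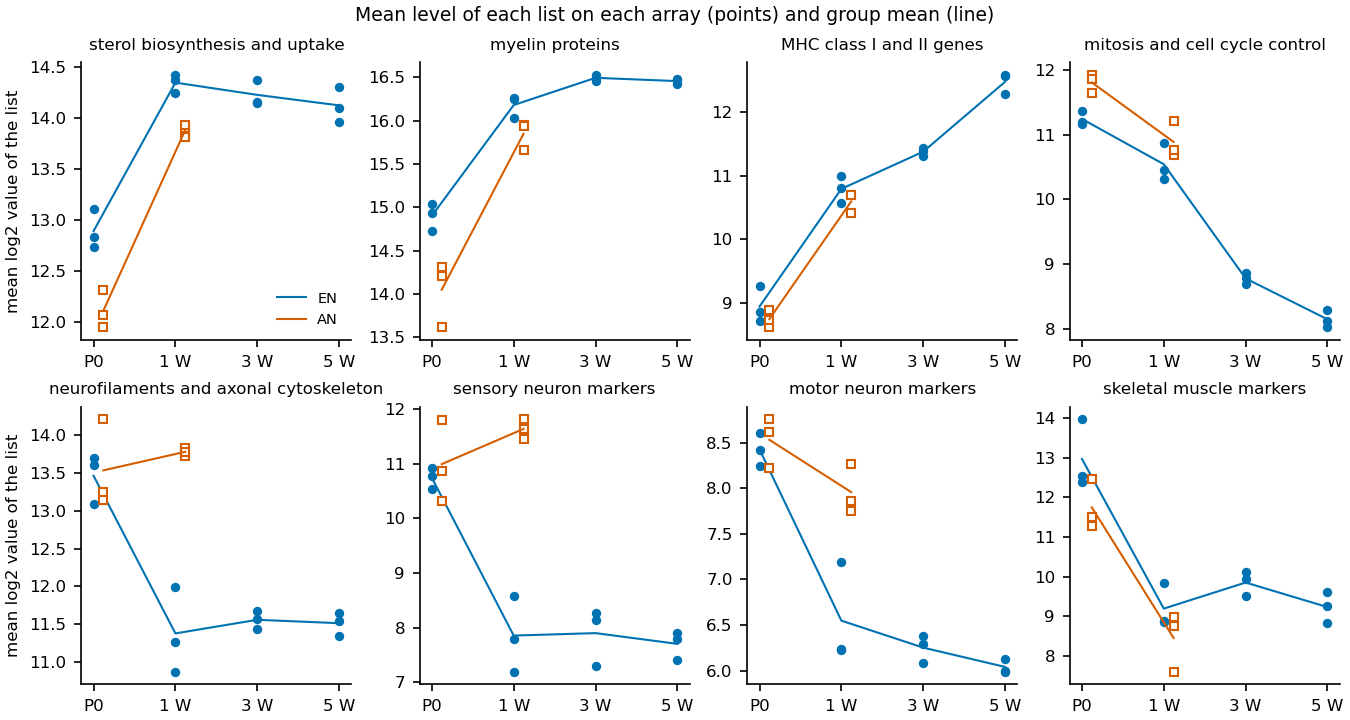
Mean log2 level of 8 gene lists (vertical axis) on each ventral root array at the 4 ages from P0 to 5 W and on each dorsal root array at P0 and 1 W (horizontal axis), each point being 1 array. Sterol and myelin lists step up between P0 and 1 W in both roots, and the sensory neuron and neurofilament lists step down in the ventral root and not in the dorsal root.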

How the data were processed

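Total RNA was extracted with a mirVana kit, labelled with Cyanine-3 and hybridised to 1-colour Agilent SurePrint G3 mouse arrays, whose probe coordinates are given for mm9. Scanner intensity values were read by the authors with Feature Extraction 10.7.1.1, and the deposited log2 values were normalised by the authors by quantiles in GeneSpring. Gene names came from the scanner files (761 tested genes were matched through an older symbol), and 5563 tested probes without one were left out of gene counts. Differences were tested with limma 3.58.1 in R 4.3.3 over the 6 arrays, with Benjamini-Hochberg adjustment over all tested probes; calls needed an adjusted p below 0.05 and a fold above 2. A gene took its brightest tested probe, and named genes were those with the largest called change plus members of the lists. Where the dimmer stage was above background on no array, a fold is a bound against the lowest signal well above background. Where it was above background on some arrays only, the fitted change is given, and values below background enter its size. The gene lists, markers and named genes were chosen with earlier results of these data known. Summed levels add the linear values of a list's brightest probes. The script was tested on simulated data. The number of arrays limits the precision, and 363 spots marked as outliers among the tested probes were kept. Between AN and EN, same-numbered samples deviated together (correlations 0.40 to 0.66), whereas between P0 and 1 W of EN they did not. Promoters were taken from RefSeq, GRCm38.p6. Some members of the lists are counted but not reported here by name.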

Additional observations from a re-analysis of the deposited data

Results flagged for a closer look

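Some results differed between the 2 roots in the tested interaction, given here as the change in AN minus the change in EN. In all, 679 probes differed. Of the gene lists, 10 sensory neuron markers, 6 SNARE and vesicle genes, 5 neurofilament genes, 4 axon growth genes and 4 node genes did. Among genes with large differences were Tlx2 (5.10), Mrgprd (4.90), Prdm12 (4.87) and Avil (4.85) on the side of AN, and Aldh1a1 (-1.87), Slit2 (-1.74), Aldh1a7 (-1.71) and Vwa5b2 (-1.68) on the side of EN. The fitted differences of Trappc3l (5.15) and Sptbn5 (-1.79) are not exact and have no rank, since Trappc3l was above background on no EN array of 1 W and Sptbn5 on no EN array of P0. The mean of the sensory neuron markers was 10.74 at P0 and 7.85 at 1 W in EN, against 10.99 and 11.64 in AN, and its part in these differences was not tested. No test for single deviating samples was run in groups of 3 arrays, and replicate 3 of EN 1 W, which stood apart, is described with the results.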

How the results depend on the processing

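Of 33299 probes 4107 differed between 1 W and P0, and the number was 2382 after normexp background correction of the scanner signals and 7771 (4229 genes) at a fold above 1.5, both outside 1.5 times the main count. The called genes numbered 1893 with slide as a block, 1739 where a probe had to be above background on all 6 arrays and 1914 to 2661 (3318 to 4867 probes) when 1 array was left out, most without replicate 3 of 1 W. With a replicate block across the stages 4176 probes and 2311 genes were called, but the numbers did not pair the EN samples (correlations 0.245, -0.054 and 0.107). The 75th percentile scaling moved the median of all probes by -0.11. No called change of a named gene turned its direction. Among list medians, that of interferon-stimulated genes changed sign without replicate 3 of 1 W, and those of the hedgehog, ephrin and meningeal lists, all near 0, with single arrays left out. The interaction count of 679 was 242 with no filter, 398 for probes above background on all 12 arrays, 22 with all 24 arrays, 1044 with the replicate block, 1529 at an unadjusted p below 0.05, and 114 to 981 when 1 array was left out (lowest without replicate 3 of EN P0 and replicate 2 of AN 1 W); the cause was not tested. It was more than 1.5 times smaller also without replicate 2 of EN P0, replicate 2 of EN 1 W, replicates 1 and 3 of AN P0 and replicates 1 and 3 of AN 1 W. Weak signal limits the neuronal receptor lists, where many 1 W values were below background.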
